A study of Mus musculus with 7 samples.

Results

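The translation initiation and elongation factors of the mouse uterus were followed over a day after a single injection of dihydrotestosterone (DHT), the potent androgen made from testosterone. The members were all genes whose symbol begins with Eif or Eef and that were named alone by a probe set, the group of oligonucleotides that reads a transcript on an Affymetrix array. They came to 49 of the 8251 genes named in this way, read by 66 probe sets. Female C57BL/6 mice were ovariectomized, which removes their ovarian hormones, and were killed 7 days later. DHT at 0.1 mg per mouse was injected under the skin 1, 3, 6, 12, 18 or 24 h before death, and the control mice had vehicle alone 24 h before death. Uteri were pooled before RNA extraction, and each pool was read on 1 U74Av2 array, so that the study holds 7 arrays and no replicate of any group.

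Several points of the labels limit these groups. The mice are labelled as 10 to 11 weeks old, while the husbandry notes say that they arrived at that age and were then acclimatized. A number of 10 mice is given without saying whether it was counted per pool. The titles of the DHT samples list an 18 h group and none earlier than 1 h, and the series' design text differs from them in these times. The titles were followed here for the DHT arrays. The vehicle sample is titled as 0 h, while its description says that the mice were killed 24 h after vehicle, which was followed. The 24 h group is the only one with a vehicle control killed at the same time after injection, so at 1 to 18 h DHT cannot be told apart from the time since injection. All 6 comparisons share the same vehicle array.

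Translation starts when eIF2, loaded with GTP and the initiator tRNA, joins the small ribosomal subunit together with eIF1, eIF1A, eIF3 and eIF5. The cap-binding complex eIF4F brings in the mRNA, and eIF5B and eIF6 act around the joining of the large subunit. eIF2B reloads eIF2 with GTP and is blocked when stress-activated kinases phosphorylate eIF2, while 4E-binding proteins hold back the cap-binding protein eIF4E. During elongation eEF1A delivers each aminoacyl-tRNA and eEF2 moves the ribosome along the mRNA. Protein synthesis in the uterus is known to respond to sex steroids, and many mRNAs of the translation machinery carry a pyrimidine run at their very 5′ end through which mTOR signalling controls their own translation.

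The start sites of 8 factor genes are shown first. Eef1a1, Eif3f, Eef2, Eif1b and Eif3k carry sequence features that are usually looked for in this gene class. Eif3j1, Eif2b5 and Eif2b1 are shown for their ratios to vehicle. RefSeq promoter windows of 300 bases (GRCm38.p6, 250 bases before to 50 after the start) were found for 41 of the 49 genes. The stretches printed here run from 60 bases before to 30 after the start, 5′ to 3′. In the windows of Eef1a1 and Eif3f the capitals mark a run of at least 5 pyrimidines that begins with C within 5 bases of the start. A stretch inside a run that began farther upstream was not counted, unless a C stood at the outermost of these bases. In those of Eef2, Eif1b and Eif3k they mark the E-box CACGTG, the letters bound by MYC and related factors. Eif3j1 was above vehicle at all 6 times, and Eif2b5 and Eif2b1 were 1.5-fold above it at 6 h. Their windows hold no CACGTG and no run so defined, although the start of Eif2b5 lies within a pyrimidine stretch that began farther upstream. Starts here are those annotated in RefSeq, and whether a marked run forms the 5′ end of the mRNA was not tested. In the Eef1a1 window the letters tatataa lie downstream of the run. In that of Eef2 the stretch ctcttcc lies downstream of the annotated start, outside the bases searched for a run.
Eef1a1 (chr9:78481695-78481784, minus strand): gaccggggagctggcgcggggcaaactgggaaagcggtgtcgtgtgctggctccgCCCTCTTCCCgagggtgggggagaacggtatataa
Eif3f (chr7:108934355-108934444, plus strand): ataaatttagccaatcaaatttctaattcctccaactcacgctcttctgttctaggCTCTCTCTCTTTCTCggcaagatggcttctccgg
Eef2 (chr10:81176571-81176660, plus strand): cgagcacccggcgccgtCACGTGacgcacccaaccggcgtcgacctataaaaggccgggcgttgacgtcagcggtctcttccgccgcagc
Eif1b (chr9:120492546-120492635, plus strand): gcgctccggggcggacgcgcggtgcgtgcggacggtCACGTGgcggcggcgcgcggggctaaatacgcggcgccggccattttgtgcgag
Eif3k (chr7:28981859-28981948, minus strand): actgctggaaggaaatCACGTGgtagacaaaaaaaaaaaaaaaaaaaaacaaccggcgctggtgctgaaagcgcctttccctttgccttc
Eif3j1 (chr2:122028520-122028609, plus strand): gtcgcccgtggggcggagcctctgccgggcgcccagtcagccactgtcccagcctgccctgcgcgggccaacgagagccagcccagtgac
Eif2b5 (chr16:20498757-20498846, plus strand): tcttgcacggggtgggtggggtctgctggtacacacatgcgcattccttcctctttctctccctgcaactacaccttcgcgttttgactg
Eif2b1 (chr5:124579102-124579191, minus strand): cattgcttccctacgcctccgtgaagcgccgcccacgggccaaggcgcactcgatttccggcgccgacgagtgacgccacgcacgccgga

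Over the whole windows, searched on both strands, CACGTG was found in 10 of the 41 factor genes (24.4%), beside 11.5% of the genes named by the array and 8.09% of all genes of the table. Its carriers were Eef2, Eef2k, Eif1b, Eif3a, Eif3f, Eif3k, Eif4a1, Eif4e, Eif4h and Eif5a. CCGGAAG, the core bound by ETS-family factors, was found in 14 genes (34.1%), beside 17.1% and 9.93%, and was looked for after the sequences had been read. A pyrimidine run near the annotated start, on the strand of the gene, was found in 8 genes (19.5%), beside 18.6% and 16.2%. TGATGCAA, a form of the element bound by ATF4 in stress-response genes, was found in none of the 41, beside 0.806% and 1.03%. The windows of the factors had a median GC content of 61.3%, beside 59.7% for genes named by the array and 52.8% for all genes. These matches are letters in a window and not shown to be sites.

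The arrays held MAS5 signals, a linear measure of hybridization brightness on which every array's trimmed mean was 500.2. A floor of 145.9, the 40th percentile of the table, replaced any lower signal before log2 values were taken, and a gene was kept when its mean lay above the floor. This left 6326 genes, among them 42 of the 49 factors, and 39 of these were above the floor on all 7 arrays. The factors left out were Eef1g, Eif2ak2, Eif2s3y, Eif4e, Eif4h, Eif4enif1 and Eif5a. Eif2s3y lies on the Y chromosome, and its signal in this female tissue was between 2.9 and 37.2. The 7 arrays were much alike, with median signals of 227.4 to 237.0 and 3′ to 5′ signal ratios of 0.828 to 0.888 for Gapdh and 1.03 to 1.195 for Actb. The 18S ribosomal RNA control probe set stood apart at 3 h (1087.7) and 18 h (1041.5) from 282.2 to 452.5 on the other arrays. Of the cell type markers read, 6 of 6 for smooth muscle, 6 of 6 for epithelium, 5 of 6 for stroma, 5 of 5 for endothelium and 5 of 6 for leukocytes were above the filter, while Vim, Ptprc, Alas2 and Tnnt3 were at the floor. Summed smooth muscle marker signals were 28457.4 on the vehicle array, 25737.3 at their lowest at 3 h and 47924.5 at their highest at 24 h. Smooth muscle medians of the log2 ratio to vehicle went with these sums, being -0.2238 for 3 h and 0.6979 for 24 h. Stromal marker signals summed to 42039.7 on vehicle, 41314.6 at 6 h and 63111.5 at 24 h. The stromal medians did not follow their sums on every array. A sum of 56262.9 on the 18 h array stood beside a median log2 ratio of 0.0042. The 12 h sum of 46825.8 stood beside -0.0599. For 6 h the median was -0.3018, and for 24 h 0.2539. Skeletal muscle markers, 3 of 4 above the filter, summed to 807.3 on vehicle and to 556.0 to 738.6 after DHT. The part of these markers in the results was not tested, and in such bulk tissue fewer cells of a type and less RNA per cell cannot be told apart.

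As a group the factors stayed close to their vehicle levels. The median log2 ratio to vehicle over the 42 genes came to 0.0073, 0.0015, 0.0605, 0.0472, 0.0017 and 0.1014 for 1, 3, 6, 12, 18 and 24 h, while the median over all genes was 0 at each time. More factors lay above than below vehicle on the 6 h (25 against 15), 12 h (26 against 15) and 24 h (30 against 10) arrays. These were 59.5%, 61.9% and 71.4% of the factors, beside 46.3%, 48.2% and 48.1% of all genes. The share of all genes varied with signal level, being 39.7% at 24 h for the dimmest level and 60.7% for the brightest. The shares are split by level below. At 1, 3 and 18 h the split was 23 against 18, 21 against 20 and 21 against 19. The 26 at 12 h include Eif2ak3, which was above the floor on that array alone. The 23 at 1 h and the 21 at 3 h include Eef2k, which was above the floor on these arrays alone. Both passed the filter only through the arrays where they are high, so their places in these counts are no support. Under quantile normalization the share above vehicle at 24 h was 62.8%. The spread of a factor over the 7 arrays, as the log2 range from its lowest to its highest array, had a median of 0.57, the same to 2 decimals as the 0.57 of all genes. Within signal levels this median differed. It was above that of all genes at each level up to 4 log2 units over the floor, as 0.73 beside 0.54 between 2 and 3 units. Over 4 units it was 0.37 beside 0.45.

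**Figure D1:**
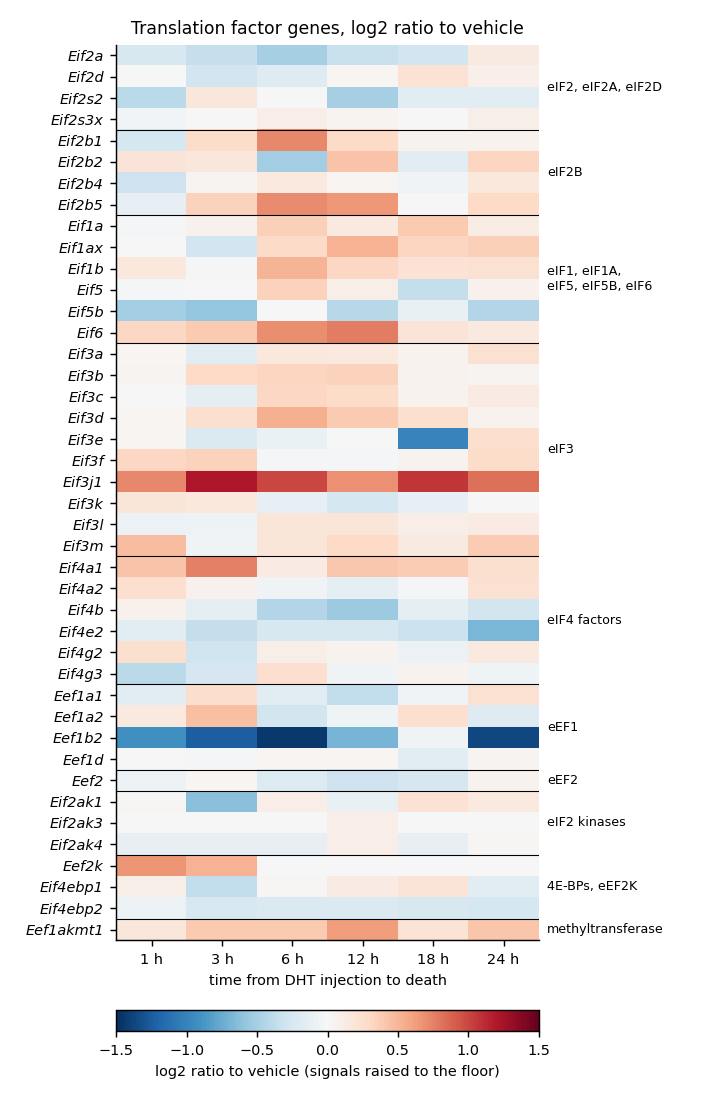
Log2 ratio to the vehicle array (colour scale, red above and blue below vehicle) of the 42 factor genes above the filter (rows, grouped by role) at each time after DHT (columns), 1 array per time. Eif3j1 is red at all 6 times, Eif6 is deepest at 6 and 12 h, and white cells include values held at the floor, as for Eef2k from 6 h on.

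Single factors at least 1.5-fold from vehicle were few. At 1 h, 2 of 42 were 1.5-fold higher and 1 lower, beside 3.18% and 2.69% of all genes. Of these, Eef2k was above the floor on the 1 and 3 h arrays alone, so it passed the filter through the arrays where it is high and its count is no support. At 3 h, 2 were higher and 2 lower, where all genes had 5.09% and 4.82%. At 6 h, 4 were higher and 1 lower against a background of 6.88% and 6.23%. The 12 h array also had 4 higher and 1 lower, with 8.55% and 7.02% of all genes. At 18 h there was 1 in each direction, beside 5.77% and 5.42%, and at 24 h there were 1 higher and 2 lower, beside 5.07% and 4.92%. With 42 genes, these counts lie near the background shares. In all, 31 factors (73.8%) were 1.5-fold from vehicle at no time, beside 67.5% of all genes. Eif3j1, Eif6, Eif2b5 and Eef1b2 were 1.5-fold from vehicle in the same direction at 2 or more neighbouring times, which is 9.52% of the factors and 13.8% of all genes.

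The eIF3 complex, a scaffold of many subunits on the small ribosomal subunit, held the factor that stood farthest above vehicle. Eif3j1 encodes eIF3j, a loosely bound subunit that reaches the mRNA entry channel and the decoding site. Its signal was 636.8 on the vehicle array and 1053.5, 1472.1, 1275.9, 1027.8, 1338.4 and 1132.9 at 1, 3, 6, 12, 18 and 24 h, the order kept for each series of 6 values below. The vehicle array was the lowest of the 7. Counting ties at the floor, this held for 8 of the 42 factors and for 21.6% of all genes. The ratio to vehicle was greatest on the 3 h array (2.31-fold) and least on the 12 h array (1.61-fold). A near-identical copy, Eif3j2, lies at another locus of the mouse genome, and how far it adds to this probe set was not tested.

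The other subunits lay closer to vehicle. Eif3d, a subunit that can itself bind the cap of some mRNAs, had a signal of 1876.0 on vehicle and 1913.1, 2219.3, 2716.3, 2470.8, 2208.2 and 1953.1 after DHT. Its 6 DHT values were all above vehicle and highest at 6 h, with a log2 ratio of 0.53. Eif3c, a core subunit, was 3894.1 on vehicle and 3907.6, 3507.6, 4848.3, 4714.6, 4037.2 and 4250.4 after DHT, also highest at 6 h. Eif3b, another core subunit, had log2 ratios of 0.33 at 6 h and 0.35 at 12 h. Eif3k, a small peripheral subunit, was 4187.0 on vehicle and 4757.8, 4660.8, 3836.8, 3492.1, 3843.3 and 4174.7 after DHT, so that it lay above vehicle at 1 and 3 h and below it afterwards. Eif3e, singled out after its values were seen, had 565.6 on vehicle and 488.3 to 675.4 on the other DHT arrays, but 282.5 at 18 h. Over the 10 eIF3 genes the median log2 ratio was 0.04, 0.05, 0.18, 0.23, 0.06 and 0.18, and 9, 5, 7, 8, 8 and 9 of the 10 were above vehicle. The shares of all genes above vehicle were 48.1%, 45.7%, 46.3%, 48.2%, 45.8% and 48.1%. Eif3f, shown above for its pyrimidine run, was 237.6 on vehicle and 294.4, 301.7, 232.5, 234.5, 246.6 and 286.5 after DHT.

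By mean log2 ratio over the 6 DHT arrays, Eif3j1 (0.92) was followed by Eif6 (0.42), Eif4a1 (0.39), Eef1akmt1 (0.37) and Eif2b5 (0.31). Eif6 encodes a factor that binds the large ribosomal subunit, takes part in its maturation and keeps it from joining the small subunit too early. Its signal was 692.5 on vehicle and 857.3, 911.2, 1120.5, 1174.8, 789.4 and 768.2 after DHT. All 6 DHT arrays were above vehicle, with the 6 and 12 h arrays highest at 1.62-fold and 1.70-fold. Eif1b, a relative of the start codon factor eIF1, was 1304.5 on vehicle and 1460.5, 1282.5, 1863.0, 1614.5, 1518.1 and 1530.9 after DHT, so that all times but 3 h lay above vehicle.

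Eif1ax, the X-linked gene of eIF1A, which works with eIF1 in scanning, was 667.0 on vehicle and 664.2, 545.2, 815.3, 960.2, 831.7 and 852.8 after DHT. It was below vehicle at 1 and 3 h and above it from 6 h on, and its dimmer probe set was above vehicle at 6, 12 and 24 h but not at 18 h (426.1 beside 476.0). Eif5b, the GTPase that joins the subunits, had 508.7 on vehicle and 358.5, 340.5, 512.0, 381.9, 470.4 and 375.0 after DHT. It was below vehicle at all times but 6 h, where it was level with vehicle at a log2 ratio of 0.01. At 6 h all 6 genes of this role (Eif1a, Eif1ax, Eif1b, Eif5, Eif5b and Eif6) were above vehicle, Eif5b only barely. Their median log2 ratio was 0.35 then, and 5 of the 6 were above vehicle at 12 h.

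Among the 4 eIF2B genes on the array, 2 peaked at 6 h. Eif2b5 encodes the catalytic epsilon subunit of this exchange factor. Its brighter probe set had 395.9 on vehicle and 363.6, 504.4, 647.1, 623.2, 395.0 and 485.6 after DHT. The dimmer probe set gave 175.7 on vehicle and 137.0, 217.9, 322.7, 297.5, 220.2 and 247.6. Both were below vehicle at 1 h and highest at 6 and 12 h, at 1.63-fold and 1.57-fold on the brighter probe set. Eif2b1, the alpha subunit, which senses phosphorylated eIF2, was 388.7 on vehicle and 324.5, 471.9, 643.0, 474.9, 402.0 and 401.7 after DHT, with 6 h standing above the rest.

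The remaining subunits did not share that peak. Eif2b2, the beta subunit, was 572.9 on vehicle and lowest at 6 h, at 398.3, where Eif2b1 and Eif2b5 were highest. Eif2b4, the delta subunit, was 712.9 on vehicle and 575.0, 734.7, 790.6, 730.0, 686.7 and 793.5 after DHT, lowest at 1 h. Eif2b1 and Eif2b2 were named after their values were seen. The median of the 4 genes was -0.19, 0.23, 0.43, 0.36, -0.03 and 0.22 over the 6 times.

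**Figure D2:**
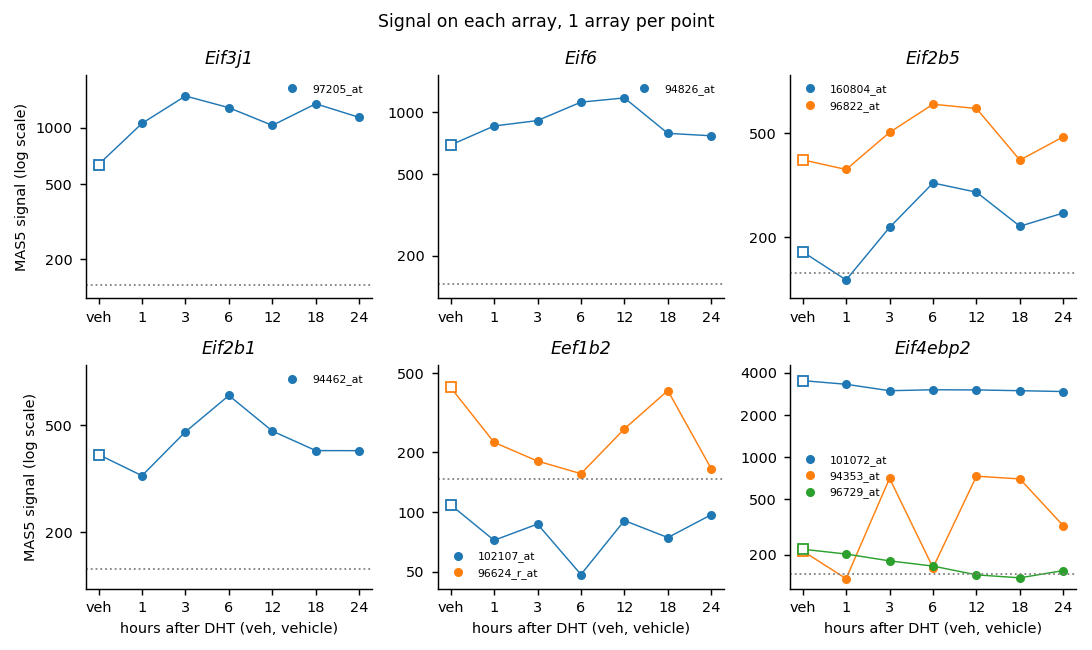
MAS5 signal (log axis) on each of the 7 arrays for 6 factor genes, with every probe set of the gene as its own line. The open square is the vehicle array, filled points are DHT arrays by hours after injection, and the dotted line is the floor of 145.9. The 2 probe sets of Eif2b5 run in parallel, whereas the 3 of Eif4ebp2 do not.

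eIF2 itself and the related tRNA carriers gave no common direction. Eif2s3x, the X-linked gene of the gamma subunit that holds the initiator tRNA, was 4864.1 on vehicle and 4720.1, 4882.3, 5209.4, 5012.5, 4875.7 and 5175.9 after DHT, a narrow range. Eif2s2, the beta subunit, had 243.1 on vehicle and 183.8, 274.1, 244.4, 172.7, 216.9 and 215.5 after DHT on its brighter probe set. Its dimmer probe set went against this, under the floor on the vehicle and 1 h arrays and between 168.6 and 206.5 on the later ones. Eif2a, a factor distinct from the alpha subunit of eIF2, was 386.8 on vehicle and 327.5, 303.9, 273.8, 307.3, 317.6 and 423.0 after DHT, below vehicle up to 18 h and above it at 24 h. Eif2d, which can deliver tRNA without eIF2, was 548.9 on vehicle and 552.6, 449.5, 478.8, 562.1, 635.6 and 579.4 after DHT, lowest at 3 h and highest at 18 h.

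The cap-dependent factors were divided. Eif4a1, the RNA helicase of eIF4F, was 678.7 on vehicle and 915.8, 1146.7, 739.7, 897.6, 883.2 and 803.8 after DHT. Vehicle was its lowest array, as for 21.6% of all genes, and 3 h its highest, at 1.69-fold. Its probe set is the only one of the gene and carries a suffix by which the maker marks sets that did not meet all of its design rules. Eif4a2, the paralogue that can take its place in the complex, was 5865.5 on vehicle and 6998.8, 6114.8, 5654.3, 5301.9, 5777.6 and 6853.0 after DHT, thus lowest at 12 h.

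Eif4b, which stimulates the helicase, was 3631.8 on vehicle and 3790.1, 3297.7, 2670.3, 2493.1, 3295.2 and 3005.0 after DHT, with its lowest values at 6 and 12 h. Its dimmer probe set, which has the same suffix as that of Eif4a1, did not show them, with 709.8 on vehicle, 692.0 at 6 h and 751.6 at 12 h. Eif4e2 encodes a cap-binding protein that competes with eIF4E and represses translation. Its signal was 321.6 on vehicle and 285.5, 251.8, 273.2, 272.1, 257.5 and 199.6 after DHT, all below vehicle and lowest at 24 h, the time with a matched control, at a log2 ratio of -0.69. The other probe sets of Eif4e2, Eif3e and Eif5b were above the floor on 1 array each and give no pattern to compare. Of the 6 measured genes of the cap-dependent role, 4 were below vehicle and 2 above it at 3, 12 and 18 h. Of all genes, 45.7%, 48.2% and 45.8% were above vehicle at these times.

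Eef1a1 and Eef2, the genes of the central elongation factors, were read by very bright probe sets. Eef1a1, the main eEF1A gene, was 36244.5 on vehicle and 32318.7, 43661.9, 32327.5, 28021.3, 35044.0 and 42323.9 after DHT. It was lowest at 12 h, with a log2 ratio of -0.37, and highest at 3 h, with 0.27. Eef2 was 11631.8 on vehicle and 10931.3, 11908.5, 10052.6, 9345.1, 9768.3 and 12065.9 after DHT, and it too was lowest at 12 h. The median log2 ratio of the 100 brightest probe sets moved alongside, from -0.17 at 12 h to 0.11 at 3 h and 0.17 at 24 h. Eef1a1 ranked 2nd in signal on all 7 arrays, and quantile normalization therefore set its ratio to 0 at every time. Under the same normalization Eef2 was slightly below vehicle at 3 and 24 h (-0.03 and -0.07) in place of slightly above (0.03 and 0.05), and -0.30 at 12 h. Eif3k and Eif4b were likewise lowest at 12 h, with log2 ratios of -0.26 and -0.54, which were -0.27 and -0.53 under quantile normalization. Other bright probe sets did not share this, since Eif3b was highest at 12 h (0.35) and Eif3c (0.28), Eif3l (0.18), Eif2s3x (0.04) and Eef1d (0.03) were above vehicle there.

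**Figure D3:**
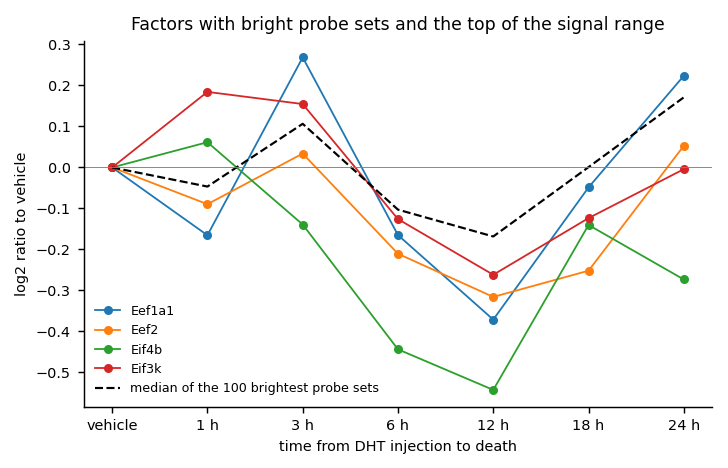
Log2 ratio to vehicle of 4 factors with bright probe sets (coloured lines) and the median log2 ratio of the 100 brightest probe sets (dashed) on each array, 1 array per point, the vehicle array being 0 by construction. The 4 were chosen after their values were seen, as factors lowest at 12 h, where Eef1a1 is at -0.37 and the dashed line at -0.17. Other factors with bright probe sets are not drawn, and Eif3b was highest at 12 h.

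The subunits that reload eEF1A differed. Eef1d, the delta subunit of the exchange complex eEF1B, was 2553.1 on vehicle and 2278.8 to 2635.3 after DHT. Eef1b2, another exchange subunit of that complex, was read by a dim probe set with 424.0 on vehicle and 224.3, 180.5, 156.0, 262.2, 408.5 and 165.0 after DHT. This placed the 18 h array beside vehicle and the other 5 below it, at a log2 ratio of -1.44 at 6 h. The probe set's name carries the same suffix as that of Eif4a1, and the gene's other probe set was under the floor on all 7 arrays, between 48.5 and 108.8. With the floor at the 60th percentile the ratio of Eef1b2 at 1, 3, 6, 12 and 24 h was -0.24. Eef1a2, the eEF1A paralogue best known from muscle and neurons, was between 217.5 and 361.0 on all 7 arrays.

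Of the inhibitors of translation, Eif2ak1 was 1.5-fold lower at 3 h, beside 4.82% of all genes. Eef2k was 1.5-fold higher at 1 h, beside 3.18% of all genes. It passed the filter only through the 1 and 3 h arrays, where it is high, so this is no support. Eif4ebp2, a 4E-binding protein, had 3524.9 on vehicle and 3319.7, 2985.0, 3032.3, 3024.2, 2986.3 and 2944.9 after DHT on its brightest probe set, below vehicle at all 6 times. Another probe set was 218.8 on vehicle and 202.1, 180.5, 165.6, 143.4, 136.5 and 153.9 after DHT, also below vehicle throughout. Its 12 and 18 h signals were under the floor. The remaining probe set disagreed with both, with 212.6 on vehicle, 704.3, 729.3 and 696.9 at 3, 12 and 18 h and 134.6 at 1 h. A mean over the 3 probe sets therefore gave a log2 ratio of 0.40 at 3 h, where the brightest gave -0.24.

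Eef2k, the kinase that inactivates eEF2, was 98.7 on vehicle, which is under the floor, 231.8 and 208.8 on the 1 and 3 h arrays, and 26.7 to 97.2 from 6 h on, again under the floor. Among the kinases of eIF2, Eif2ak1, the haem-regulated kinase, was 424.3 on vehicle and 428.1, 275.2, 454.0, 392.6, 493.8 and 469.0 after DHT, with 3 h apart from the rest. Eif2ak4, the amino acid sensor GCN2, lay near the floor, with 159.4 on vehicle and 142.8, 146.5, 123.8, 170.9, 142.6 and 161.6 after DHT. Eif2ak3, the endoplasmic reticulum kinase PERK, was above the floor on the 12 h array alone (156.1). Eef1akmt1, which is not a translation factor but methylates eEF1A, was 210.5 on vehicle and 236.1, 277.3, 277.0, 326.3, 242.5 and 281.8 after DHT, all above vehicle.

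The array on which a factor was highest varied among the factors. The vehicle array was highest for 3 of the 42 factors (16.3% of all genes), namely Eef1b2, Eif4e2 and Eif4ebp2. The 1 h array was highest for 6 (14.2% of all genes), the 3 h array for 6 (15.8%) and the 6 h array for 10 (14.1%). The 12 h array was highest for 7 (15.6%), the 18 h array for 4 (11.5%) and the 24 h array for 6 (12.6%). The 7 at 12 h include Eif2ak3, and the 6 at 1 h include Eef2k. Both passed the filter only through arrays where they are high, so their places in these counts are no support. Those highest at 6 h were Eif1b, Eif2b1, Eif2b5, Eif2s3x, Eif3c, Eif3d, Eif3l, Eif4g3, Eif5 and Eif5b. In turn 6 factors lay above vehicle at all 6 times, which held for 13.5% of all genes, and 3 below it at all 6, which held for 16.3%.

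Split by signal level, with no test between the levels, the ratios were as follows. The 10 genes less than 1 log2 unit above the floor on average had 3 above vehicle at 6 h and 3 at 24 h, which is 30%, beside 35.4% and 39.7% of all genes of that level. The 8 genes between 1 and 2 units had 5, 5 and 7 above vehicle at 6, 12 and 24 h, beside 48.6%, 52.1% and 50% of all genes. Of the 10 genes between 2 and 3 log2 units above the floor on average, 9 were above vehicle at 6, 12 and 24 h, beside 52.1%, 51.6% and 51.4% of all genes of that level. This group holds Eif1a, Eif1ax, Eif2b2, Eif2b4, Eif3a, Eif3j1, Eif4a1, Eif4g3, Eif5 and Eif6. Between 3 and 4 units lay Eif1b, Eif3d and Eif3m, all 3 above vehicle at these times, beside 54%, 51.4% and 50.4% of all genes of that level. The 11 genes more than 4 log2 units above the floor, among them Eef1a1, Eef2, Eif4a2 and Eif4b, had a median log2 ratio of -0.15 at 12 h, beside -0.04 for all genes of that level. At 24 h they had 0.05 beside 0.07. Above vehicle were 5, 5 and 8 of them at 6, 12 and 24 h (45.5%, 45.5% and 72.7%), beside 50.2%, 45.9% and 60.7% of all genes of that level.

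To set these differences against the spread between arrays, the 1, 3 and 6 h arrays were pooled as early and the 12, 18 and 24 h arrays as late, and limma was fitted to the 8421 probe sets above the filter. Vehicle has a single array, so the fit takes its variation to equal that of the DHT arrays, and the spread includes real differences between times. None of the 52 factor probe sets passed a Benjamini-Hochberg adjusted p of 0.05 in limma for early against vehicle, late against vehicle or late against early. Of all probe sets 0.273%, 0.309% and 0% did. At an unadjusted p under 0.05, early against vehicle gave 1 higher and 0 lower factor probe sets, beside 2.49% and 3.84% of all. Late against vehicle gave 1 higher and 2 lower, beside 5.53% and 6.19%. Late against early gave 0 higher and 1 lower, beside 5.76% and 4.49%.

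Eif3j1 was the factor probe set higher at an unadjusted p under 0.05 in both comparisons with vehicle. Its log2 difference was 0.98 ± 0.23 (SE) early, with a limma adjusted p of 0.406, and 0.86 ± 0.23 late, with an adjusted p of 0.278. It was above vehicle on 6 of 6 DHT arrays. The 2 lower probe sets of the late comparison were both of Eif4ebp2, at -0.24 ± 0.09 (limma adjusted p 0.397) for the brightest and -0.56 ± 0.12 (adjusted p 0.19) for the dim one. The dim one was under the floor at 12 and 18 h, so both values were set to the same number before the fit. The remaining probe set of Eif4ebp2 went the other way, at 1.36 ± 0.99 late. Eif6 had 0.47 ± 0.29 early and 0.37 ± 0.29 late, with limma adjusted p of 0.918 and 0.657, and Eef1b2 had -1.20 ± 0.49 early, with 0.796. The median difference over the 42 genes was 0.0088 early, 0.0452 late and 0.0143 for late against early, beside 0, 0 and -0.0026 over all genes.

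The genes that work with these factors were read from lists of 60 measured genes. The aminoacyl-tRNA synthetases and their scaffold proteins, which charge tRNAs for elongation, were mostly above vehicle at 6 and 12 h. Of their 21 measured genes 18 were above vehicle at 6 h and 19 at 12 h, beside 46.3% and 48.2% of all genes. Their median log2 ratios were 0.03, 0.12, 0.47, 0.47, 0.23 and 0.16. At 6 h 10 were 1.5-fold higher (6.88% of all genes) and at 12 h 7 (8.55%). Eprs, the synthetase for glutamate and proline, was 234.0 on vehicle and 313.6, 291.3, 372.5, 469.2, 329.5 and 280.0 after DHT. Nars, for asparagine, was 361.4 on vehicle and 369.1, 411.1, 569.1, 624.9, 472.0 and 602.9. In both genes vehicle was the lowest array, as for 21.6% of all genes, and 12 h the highest. Tars, for threonine, was 550.9 on vehicle and 334.6, 341.4, 882.6, 847.4, 565.7 and 527.4 after DHT, so that it was lower than vehicle on the first arrays and highest on the 6 h array.

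**Figure D4:**
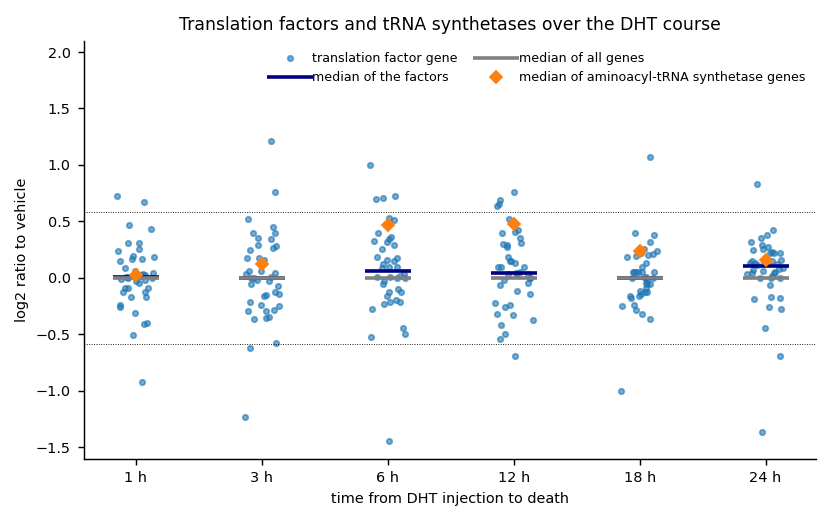
Log2 ratio to vehicle of each of the 42 factor genes (blue points, spread sideways for clarity) at each time after DHT. Also drawn are the medians of the factors (dark bar), of all genes (grey bar) and of the 21 genes of aminoacyl-tRNA synthetases and their scaffold proteins (orange diamond). Dotted lines mark 1.5-fold. The factors' median stays within 0.1014 of 0 while the diamond reaches 0.47 at 6 and 12 h.

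In the integrated stress response, whose core is the phosphorylation of eIF2 and the translation of ATF4, 4 of 7 measured genes were 1.5-fold higher at 6 h, beside 6.88% of all genes. At 18 h 0 were higher and 1, Ddit3, was lower, beside 5.77% and 5.42%. Atf4 was 1147.3 on vehicle and 1213.6, 2688.7, 1935.4, 1536.5, 1532.5 and 1090.3 after DHT, highest at 3 h. Dnajc3, which encodes a chaperone that inhibits eIF2 kinases, was 418.9 on vehicle and 472.0, 627.3, 1039.8, 851.4, 471.8 and 560.1 after DHT, highest at 6 h. Ddit3, a factor downstream of ATF4, was 219.7 on vehicle, 407.0 at 6 h and 90.3 at 18 h. Asns, an amino acid synthesis gene known as a target of ATF4, was 1675.3 on vehicle and 1345.8 to 1826.6 after DHT.

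Termination and recycling factors were split. Gspt1, the release factor eRF3a, was 849.2 on vehicle and 932.7, 900.1, 1624.9, 1416.6, 1308.4 and 937.4 after DHT. Abce1, which splits ribosomes after termination, was 514.0 on vehicle and 704.6, 916.8, 875.6, 907.5, 751.7 and 709.1 after DHT. Vehicle was its lowest array, as for 21.6% of all genes. The other 4 measured genes of that list were Etf1, with a log2 ratio of 0.62 at 6 h, and Gspt2, Hbs1l and Pelo, all below vehicle then. Pabpc4, a poly(A)-binding protein, was 745.4 on vehicle and 753.9, 791.9, 1177.5, 1358.0, 1496.1 and 913.0 after DHT, while its paralogue Pabpc1 stayed between 5981.7 and 7494.4.

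Genes of mTOR and MAP kinase signalling to translation (11 measured) had medians between -0.09 and 0.11, and Mtor itself was lowest at 6 h, at 389.8 against 652.5 on vehicle. The mitochondrial elongation factor gene Gfm1 was 199.3 on vehicle and 279.7, 274.2, 318.4, 323.8, 359.3 and 330.3 after DHT, above vehicle on all 6 arrays. No partner gene passed limma's adjusted p of 0.05 in any of the 3 comparisons. At an unadjusted p under 0.05 in limma there were 2 higher and 1 lower of the 60 early, beside 2.49% and 3.84% of all probe sets. Late there were 2 and 0, beside 5.53% and 6.19%. For late against early there were 1 and 1, beside 5.76% and 4.49%. None of the 21 synthetase and scaffold protein genes was among them.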

How the data were processed

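The deposited values are MAS5 signals, which are intensity values on a linear scale, per the submitters' processing notes and the labels. Their scaling steps are not given in the sources used here. Of 12488 probe sets, 66 were controls, 10833 named 1 gene, 396 several and 1193 none, by the platform annotation, and the 66 factor probe sets kept their symbols in RefSeq by gene identifier. The values were floored at their 40th percentile (145.9) and log2 was taken. The brightest probe set stood for each gene, and 1.5-fold was the threshold for single arrays, which have no test. limma 3.58.1 (R 4.3.3, lmFit and eBayes with an intensity trend, 4 residual and 1.69 prior degrees of freedom, two-sided) was fitted to vehicle, early and late arrays and tested on simulated data. The number of arrays limits the precision.

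Genes named with values were those 1.5-fold from vehicle in the same direction at 2 or more neighbouring times, the 5 highest and 5 lowest by mean ratio among those with the same sign at 5 or more times, the brightest of each role, and those with the 3 lowest p in each direction of each limma comparison, in all 26. Others were chosen after their values were seen. Members, lists and alternatives were chosen with earlier results of these data known. Alternatives were other floors, scalings, probe set rules, no filter, a 2-fold threshold, no intensity trend and leaving out each array.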

Additional observations from a re-analysis of the deposited data

How the results depend on the processing

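No paired analysis was possible because each group has 1 array. Counts at 1.5-fold were within 1.5 times the main count in 62 of 84 alternatives and medians within the spread between times in 32 of 36, and no ratio of a gene named by the rule changed sign where it was 1.5-fold. With the floor at the 20th percentile, the lower counts were 3, 3, 2 and 3 for 1, 6, 12 and 18 h, and 3 were higher at 24 h. With the floor at the 60th percentile, 1 was higher at 1 h, and 0 were lower at 1, 3, 6, 12 and 24 h. At 2-fold, the higher counts were 0, 1, 1, 0 and 0 at 1, 3, 6, 12 and 24 h, and the lower 0, 1, 0 and 1 at 1, 3, 12 and 24 h. The share of all genes at 2-fold is not given here, so the 2-fold counts have no background beside them. With the mean of a gene's probe sets, 0 were lower at 18 h and 1 at 24 h, and the median at 18 h was 0.0525. The median at 6 h was 0.1116 with the 60th percentile floor, 0.1194 with arrays scaled to the same median and 0.0077 with no filter. limma called 1 gene late against vehicle with the 20th percentile floor, Eif3b, through a dim probe set at 69.1 on vehicle and 6.7 to 41.6 after DHT. That dim probe set was lower on the late arrays, at 7.5 to 13.1, while the gene's brighter probe set was above vehicle at all 6 times. The cause of the moves listed here was not tested, apart from the fewer values under the lower floor. Leaving out 1 array gave 0 limma calls in each comparison, with medians of -0.0155 (without 6 h) to 0.0512 (without 3 h) early, 0.0361 to 0.0731 late and -0.0242 to 0.0623 for late against early. Arrays without replicates and signals near background limit what can be said of dim factors.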
